A study of Mus musculus with 16 samples.

Results

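The iron genes described here were 10 genes of uptake, storage, export and iron sensing, taken by symbol from the deposited tables of normalized counts: Tfrc, Slc11a2, Steap3, Slc25a37, Fth1, Ftl1, Slc40a1, Ireb2, Aco1 and Hmox1. All 10 were listed in both tables, of 13344 genes in the stroma table and 15080 in the tumor table. RNA-sequencing was performed on 16 libraries from the bone marrow of leukemia-bearing C57BL/6J mice that were either wild-type (WT) or lacked interleukin-6 (IL-6 KO), with 4 libraries per genotype from each of 2 sorted compartments. Every host, of both genotypes, had received 500000 BCR-ABL+, Arf-/- B-cell acute lymphoblastic leukemia (B-ALL) cells by tail vein, and no host was treated with chemotherapy. Bone marrow was collected 8 days after injection from mice obtained at an age of 6 to 8 weeks. The tumor libraries were mCherry+ transplanted B-ALL cells, all from 1 transplanted leukemia model, and the stroma libraries were the mCherry- cells of the same tissue. The genotype is that of the host throughout, and the transplanted cells carried the same genotype label in WT and IL-6 KO hosts. The labels do not say whether the libraries of a group came from separate mice, nor whether tumor and stroma libraries of 1 number shared a mouse, so p-values measure the spread between libraries, named below by genotype and replicate number (WT 1, IL-6 KO 3).

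Cells take up iron bound to transferrin through the transferrin receptor TFRC, reduce it in the endosome with STEAP3 and move it to the cytosol through DMT1, the product of Slc11a2. Iron is then stored in ferritin, a shell of FTH1 and FTL1 subunits, carried into mitochondria by mitoferrin 1 (Slc25a37) for heme and iron-sulfur clusters, or exported through ferroportin (Slc40a1). The iron regulatory proteins IRP1 (Aco1) and IRP2 (Ireb2) bind stem-loops called iron responsive elements when iron is scarce, which blocks translation of messages that carry the element in the 5′ UTR and protects Tfrc, which carries several in its 3′ UTR, from decay. IL-6 is known for inducing the liver hormone hepcidin, which removes ferroportin protein from the cell surface, so that macrophages that recycle red cell iron retain it. RNA levels do not show translation, protein or iron itself.

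The elements are shown because the iron regulatory proteins act on messages through them. A search of the UTRs of coding transcripts in GENCODE vM21 (GRCm38, mm10) for a bulged C, 5 bases, the loop CAGTGN and 5 bases that pair with the first 5 found 7 elements in 4 of the 10 genes, and 160 of 21901 genes (0.731%) had at least 1. Of all genes searched, 31 (0.142%) had a match in a 5′ UTR and 129 (0.589%) in a 3′ UTR. In each sequence the capitals mark the bulged C and the loop of 6 bases, and U is written as T.
Fth1, 5′ UTR (chr19:9982738-9982754, plus strand): CttcaaCAGTGCttgaa
Ftl1, 5′ UTR (chr7:45459785-45459801, minus strand): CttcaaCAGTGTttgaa
Slc40a1, 5′ UTR (chr1:45925471-45925487, minus strand): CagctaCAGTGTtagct
Tfrc, 3′ UTR, element a (chr16:32631225-32631241, plus strand): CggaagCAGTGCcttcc
Tfrc, 3′ UTR, element b (chr16:32631604-32631620, plus strand): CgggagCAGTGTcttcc
Tfrc, 3′ UTR, element c (chr16:32631669-32631685, plus strand): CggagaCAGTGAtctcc
Tfrc, 3′ UTR, element d (chr16:32631716-32631732, plus strand): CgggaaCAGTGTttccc
The Fth1 element was in 4 of 5 coding transcripts of the gene, that of Ftl1 in 1 of 2, that of Slc40a1 in 1 of 4, and the Tfrc elements were in 1 of 3. No match to these letters was found in the UTRs of Slc11a2, Steap3, Slc25a37, Ireb2, Aco1 or Hmox1. An element with an unpaired or extra base among those 5 pairs would be missed. The lack of a match therefore does not show that a gene has no element. The search took the transcript strand only, and a match is a description of sequence and not of binding.

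The tables hold counts scaled by the authors with DESeq2 size factors, separately for stroma and tumor, so levels were compared between genotypes within a table and not between tables. The sum of normalized counts ran from 8805689 to 17470735 in WT stroma and from 33973016 to 44191950 in IL-6 KO stroma. It was 38817792 to 44552085 in WT tumor and 47267047 to 55592959 in IL-6 KO tumor. The 7SL RNA gene Rn7s1 alone held 19.2% to 50.1% of the sum in WT stroma and 71.5% to 79.0% in IL-6 KO stroma 1, 2 and 3. IL-6 KO stroma 4 stood apart, with 10.9% in Rn7s1 and 61.5% in CT010467.1, which held at most 0.0387% in any other library. In tumor Rn7s1 held 3.40% to 4.11% in WT and 5.40% to 6.24% in IL-6 KO. The read depth of each library is unknown from these values. Il6 was not among the genes listed for stroma or for tumor, so the genotype labels could not be checked with it. The tumor label went with its markers, since 10 of 10 B lineage markers were listed and their sum was 136178 to 141009 in WT and 147853 to 154658 in IL-6 KO tumor, against 809 to 1706 in WT and 585 to 1573 in IL-6 KO stroma. Stroma was rich in erythroid RNA, although red cells had been lysed before the sort. It had 14 of 15 erythroid markers other than globins listed, with a sum of 45420.1 to 67991 in WT and 19039 to 83230.3 in IL-6 KO stroma, against 83.8 to 980.2 in WT and 135 to 424 in IL-6 KO tumor. The globin genes Hbb-bt, Hba-a1 and Hba-a2 summed to 94106 to 134279 in WT and 38835 to 157687 in IL-6 KO stroma. Macrophage markers were scarce in stroma, where 7 of 14 were listed (C1qb, C1qc, Mertk, Spic, Siglec1, Timd4 and Cd68 not among them) with a sum of 74.0 to 116 in WT and 57.3 to 253 in IL-6 KO stroma. Mesenchymal and endothelial markers summed to 292 to 562 in WT and 183 to 1662 in IL-6 KO stroma, with Cxcl12 and Lepr not among the 5 of 10 listed.

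Levels were taken per kilobase of the median coding transcript. By mean percentile over the 8 libraries of a table, the ferritin genes led the 10 genes in both compartments, and Hmox1 stood last. Ranked among the 11397 protein-coding genes of the stroma table, the order from high to low was Fth1, Ftl1, Slc25a37, Tfrc, Slc40a1, Slc11a2, Ireb2, Steap3, Aco1 and Hmox1. Fth1 had a mean percentile of 99.7 in WT and 99.1 in IL-6 KO stroma, and Ftl1 of 99.5 in WT and 99.1 in IL-6 KO stroma. Slc25a37 had 99.6 in WT and 99.0 in IL-6 KO stroma, and Tfrc 99.1 in WT and 98.5 in IL-6 KO stroma. The level per kilobase was 5248 ± 670.2 for Fth1 and 3978 ± 777 for Ftl1 in WT stroma (SD, n = 4 each). It was 4496 ± 776 for Slc25a37 and 2865 ± 1379 for Tfrc, so that Ftl1 and Slc25a37 were within their spread of each other. Slc25a37 stood above Ftl1 in WT stroma. In IL-6 KO stroma Tfrc had the highest mean per kilobase, 5028 ± 4406, with a wide spread. Fth1 had 2684 ± 1045 there and Ftl1 2535 ± 776 (SD, n = 4 each). Ireb2 had a percentile of 64.5 in WT and 51.6 in IL-6 KO stroma, and Steap3 of 57.8 in WT and 49.3 in IL-6 KO stroma. Aco1 had 30.3 in WT and 39.0 in IL-6 KO stroma, and Hmox1 12.4 in WT and 9.13 in IL-6 KO stroma.

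In tumor, among 11916 protein-coding genes, the order was Ftl1, Fth1, Tfrc, Steap3, Ireb2, Slc11a2, Slc25a37, Aco1, Slc40a1 and Hmox1. Ftl1 and Fth1 stood at 18086 ± 1423 and 19093 ± 669.6 normalized counts per kilobase in WT tumor (SD, n = 4 each), within their spread of each other, and at 20060.0 ± 1600.2 and 14779 ± 738 in IL-6 KO tumor. Tfrc had a percentile of 93.2 in WT and 93.6 in IL-6 KO tumor, Steap3 of 75.9 in WT and 79.6 in IL-6 KO tumor and Ireb2 of 72.9 in WT and 71.2 in IL-6 KO tumor. Slc25a37 had a percentile of 64.4 in WT and 65.4 in IL-6 KO tumor and Slc40a1 of 33.5 in WT and 31.1 in IL-6 KO tumor. By mean percentile, Slc25a37, Slc40a1, Slc11a2, Tfrc, Fth1 and Ftl1 ranked lower in the tumor table than in the stroma table. Steap3, Ireb2, Aco1 and Hmox1 ranked higher there. These ranks are a description of 2 tables that were normalized separately. The length matters for genes with short partial transcripts: with the longest coding transcript, the mean percentile of Slc40a1 was 69.4 in place of 92.1 in stroma and 15.8 in place of 32.3 in tumor, and Hmox1 then stood above Slc40a1 in tumor. That of Slc11a2 was 69.4 in place of 90.5 in stroma and 32.9 in place of 66.1 in tumor. With the longest coding transcript the order in stroma began with Ftl1, Slc25a37 and Fth1.

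To ask whether the iron genes of the leukemic cells differed by host genotype, the tumor libraries were compared with limma on log2(normalized count + 1). Fth1, the ferritin heavy chain that oxidises iron for storage, fell in IL-6 KO tumor, and Steap3, the endosomal iron reductase, rose. The other 8 genes did not pass an adjusted p of 0.05. Across the tumor table, 10.6% of the 14493 genes tested were called higher and 9.16% lower, so 1 of 10 in each direction is a share near the background. The median log2 fold change of the 10 genes was 0.022, against -0.0059 for all genes tested. All values are normalized counts, all fold changes are log2, IL-6 KO minus WT, and positions are from GENCODE vM21 on GRCm38.

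Among the genes of uptake, Tfrc (ENSMUSG00000022797, chr16:32608920-32632794, plus strand) had normalized counts of 6799, 8837, 9122 and 7897 in WT tumor, with 9047, 7048, 9129 and 11533 in IL-6 KO tumor. The genotypes overlapped, with IL-6 KO 4 highest and IL-6 KO 2 within the WT range. The log2 fold change was 0.16 ± 0.14 (SE, 95% interval -0.16 to 0.48, adjusted p = 0.467 by limma). Slc11a2 (ENSMUSG00000023030, chr15:100387898-100425072, minus strand), which encodes the endosomal and apical iron importer DMT1, had 579, 599, 431 and 547 in WT tumor, with 524, 593, 647 and 647 in IL-6 KO tumor, with overlap. Its log2 fold change was 0.17 (95% interval -0.12 to 0.45, adjusted p = 0.381 by limma). Steap3 (ENSMUSG00000026389, chr1:120190757-120272705, minus strand) had normalized counts of 3528, 3392, 3239.9 and 3680.0 in WT tumor, with 4561, 3697, 4726 and 4589 in IL-6 KO tumor. All 4 IL-6 KO libraries stood above all 4 WT libraries, although IL-6 KO 2 exceeded the highest WT library by little. Groups did not overlap in that direction for 13.6% of all genes tested. The mean was 3460.0 ± 188 in WT and 4393 ± 469.9 in IL-6 KO tumor (SD, n = 4 each), a log2 fold change of 0.34 ± 0.088 (SE, 95% interval 0.14 to 0.54, adjusted p = 0.0257 by limma). The call was lost when single libraries other than WT 1, WT 4 or IL-6 KO 2 were left out (largest adjusted p = 0.0739), under quantile normalization (adjusted p = 0.0543) and with the trend with GC content and length removed (adjusted p = 0.101). Slc25a37 (ENSMUSG00000034248, chr14:69241848-69285112, minus strand), the mitochondrial importer, had 1673, 1580.2, 1709 and 1644 in WT tumor, with 1850.2, 1749.8, 1766 and 1669.9 in IL-6 KO tumor. Of the 4 IL-6 KO libraries, 3 exceeded the highest WT library, with a log2 fold change of 0.090 (95% interval -0.060 to 0.24, adjusted p = 0.369 by limma).

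Of the 2 ferritin subunits, Fth1 (ENSMUSG00000024661, chr19:9980598-9985098, plus strand) had normalized counts of 10712, 11561, 11463 and 11477 in WT tumor, with 8692, 9272, 8209.9 and 8822 in IL-6 KO tumor. Every IL-6 KO library was below every WT library, as for 12.0% of all genes tested. The gap between the groups, from 9272 to 10712, was wider than the range within either group. The mean was 11303 ± 396 in WT and 8749 ± 437 in IL-6 KO tumor (SD, n = 4 each). It fell by 22.6%, with a log2 fold change of -0.37 ± 0.059 (SE, 95% interval -0.50 to -0.24, adjusted p = 0.00418 by limma). It was called without each of the 8 libraries in turn, with log2 fold changes from -0.40 to -0.34. It was also called under each of 9 other settings, with log2 fold changes from -0.44 to -0.36. Ftl1 (ENSMUSG00000050708, chr7:45457944-45459884, minus strand), the light chain, had 14422, 12074, 12849 and 13864 in WT tumor, with 14102, 13425, 15708 and 15781 in IL-6 KO tumor, with overlap. The 2 highest values were IL-6 KO libraries, and the log2 fold change was 0.15 ± 0.079 (SE, 95% interval -0.027 to 0.33, adjusted p = 0.209 by limma). Its value is uncertain, because 5 other genes held transcripts at least 97% identical to Ftl1 over at least 150 nucleotides, and 2 of them had values in the tumor table. The copy Ftl1-ps1 had 494, 331, 356 and 445 in WT and 1022, 497, 851 and 826 in IL-6 KO tumor, and Gm15590 stayed at or below 28.8. With the copies summed into Ftl1 the log2 fold change was 0.18 (adjusted p = 0.139), and with the trend with GC content and length removed it turned to -0.11. No such copy was found for Fth1.

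The exporter Slc40a1 (ENSMUSG00000025993, chr1:45908068-45926523, minus strand) had normalized counts of 82.4, 95.1, 60.9 and 86.5 in WT tumor, with 71.3, 71.2, 69.4 and 58.3 in IL-6 KO tumor. The groups overlapped, and the log2 fold change was -0.25 (95% interval -0.68 to 0.19, adjusted p = 0.395 by limma). Of the iron sensors, Ireb2 (ENSMUSG00000032293, chr9:54863789-54912530, plus strand) had 3388, 3424, 3397 and 3307 in WT tumor, with 3699, 2159, 3890.4 and 3678 in IL-6 KO tumor. WT libraries lay close together, 3 IL-6 KO libraries were above them and IL-6 KO 2 was far below. The log2 fold change of -0.047 (95% interval -0.42 to 0.32, adjusted p = 0.866 by limma) became 0.15 (adjusted p = 0.0659) without IL-6 KO 2. Aco1 (ENSMUSG00000028405, chr4:40143081-40198338, plus strand), whose product is an aconitase when it holds an iron-sulfur cluster and IRP1 when it does not, had 2033, 2315, 1699.7 and 2091 in WT tumor, with 1966, 1730.3, 1923 and 2021 in IL-6 KO tumor. The 4 IL-6 KO values were inside the WT range, with a log2 fold change of -0.085 (95% interval -0.31 to 0.14, adjusted p = 0.585 by limma). Hmox1 (ENSMUSG00000005413, chr8:75093621-75100589, plus strand), the inducible heme oxygenase that frees iron from heme, had 138, 128, 87.7 and 88.4 in WT tumor, with 102, 91.5, 103 and 95.2 in IL-6 KO tumor. Here too the IL-6 KO values were inside the WT range, and the log2 fold change was -0.15 (95% interval -0.58 to 0.28, adjusted p = 0.629 by limma).

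**Figure D1:**
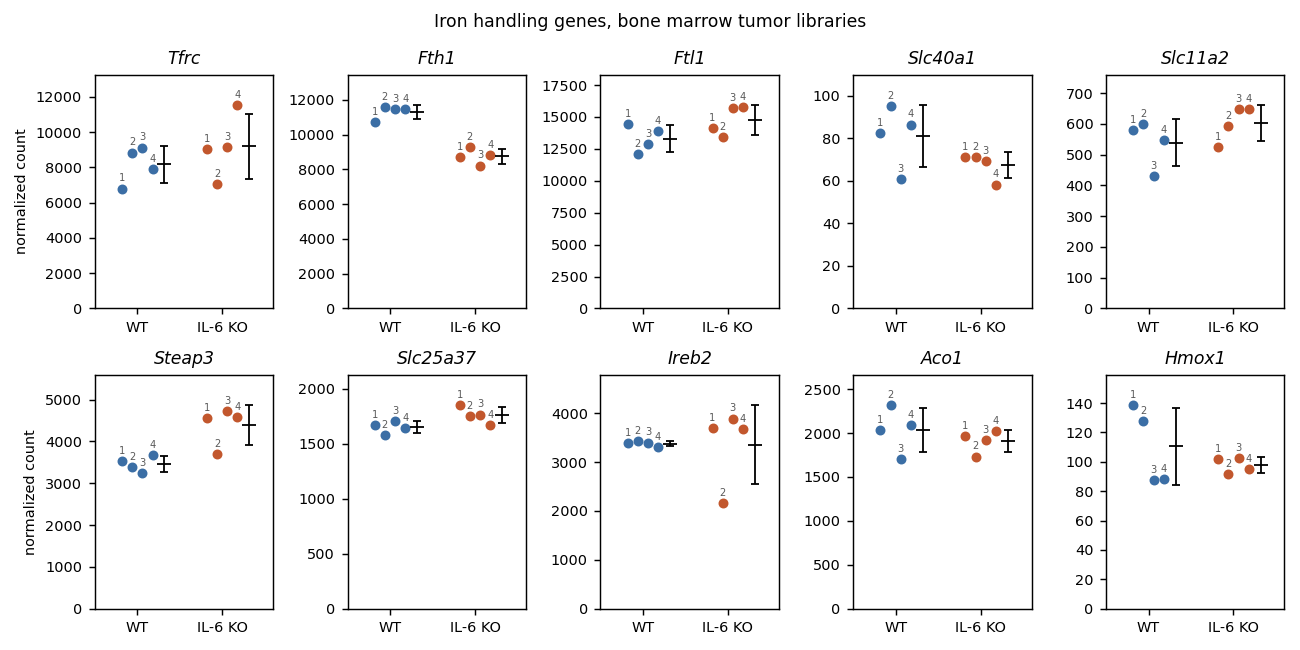
Normalized counts of the 10 iron genes in the tumor libraries, 1 panel per gene, with WT in blue and IL-6 KO in orange, numbers giving the replicate and bars giving the mean with the SD of 4 libraries. Fth1 separates with all IL-6 KO libraries at or below 9272 and all WT libraries at or above 10712, and Steap3 separates the other way with IL-6 KO 2 close to the WT libraries.

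Neutrophil markers moved with genotype in the tumor libraries. Of 14 markers 12 were called higher in IL-6 KO, and their sum was 4956 to 5651 in WT and 7923 to 19246 in IL-6 KO tumor, with IL-6 KO 3 lowest of its group. In the order IL-6 KO 1 to 4, the neutrophil sums were 18307, 19246, 7923 and 17125. Beside them Fth1 was 8692, 9272, 8209.9 and 8822, and Steap3 was 4561, 3697, 4726 and 4589. Of 7 monocyte markers, 6 were higher in IL-6 KO tumor and 3 were called, Ly6c2 (log2 fold change 2.08), F13a1 (1.44) and Ccr2 (1.22). Their summed level was 441 to 669.6 in WT and 596 to 1811 in IL-6 KO tumor, again lowest in IL-6 KO 3 within its group. Of 13 macrophage markers tested, Slc40a1 and Hmox1 included, 11 were lower in IL-6 KO tumor, 4 of them at an unadjusted p under 0.05. Such a p, in either direction, was found for 5091 of all 14493 genes tested in tumor. The 1 marker called lower compares with 9.16% of all genes called lower. Cd5l, a protein secreted by macrophages, was called lower, with 86.8 to 125 in WT and 38.4 to 58.5 in IL-6 KO and a log2 fold change of -1.12 ± 0.22 (SE, adjusted p = 0.00852 by limma). The macrophage sum without Slc40a1 and Hmox1, 1951 to 2340.4 in WT and 1861 to 2189 in IL-6 KO tumor, was mostly Mrc1, whose mean was 1407 in WT and 1479 in IL-6 KO. The part of neutrophil, monocyte or macrophage RNA in the values of the iron genes was not tested. With the trends with GC content and transcript length taken out of each library, a setting chosen after the data were seen, 2149 genes were called in place of 2870, 1491 higher and 658 lower in place of 1542 and 1328. Under that setting Tfrc was called higher, with a log2 fold change of 0.42 (adjusted p = 0.0473), while Fth1 had -0.36 (adjusted p = 0.00596).

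In stroma, 7 of the 9 iron genes that could be tested were lower in IL-6 KO mice and Tfrc and Aco1 were higher, but none passed an adjusted p of 0.05. Of 12202 genes tested, 1 was called (0.00820%). At an unadjusted p under 0.05, Fth1, Slc25a37 and Ftl1 were lower, 3 of 9, against 5.20% of all genes tested. The median log2 fold change of the 9 genes was -0.68, against -0.013 for all genes tested, and these genes do not vary independently of one another. Hmox1 was not tested, since its mean was below 10. Neutrophil markers, 14 of 14 listed, summed to 7643 to 14514 in WT and 8044 to 33216 in IL-6 KO stroma. In these bulk samples, fewer cells of a type and less RNA per cell cannot be told apart.

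Of the uptake genes in stroma, Tfrc had normalized counts of 3164, 8818, 3666 and 5666 in WT stroma, with 1259.9, 13574, 18728 and 3850.0 in IL-6 KO stroma. The IL-6 KO libraries fell both below and above the whole WT range and spanned 14.9-fold, against 2.79-fold in WT. The log2 fold change was 0.27 ± 0.70 (SE, 95% interval -1.25 to 1.79, adjusted p = 0.933 by limma). Without IL-6 KO 3 it was -0.28 and without IL-6 KO 1 it was 1.02. Slc11a2 had 486, 570.2, 254 and 362 in WT stroma, with 164, 109, 487 and 194 in IL-6 KO stroma. Of the 4 IL-6 KO libraries, 3 were below the lowest WT library and IL-6 KO 3 was within the WT range, with a log2 fold change of -0.97 (95% interval -1.99 to 0.041, adjusted p = 0.556 by limma). Steap3 had 184, 196, 136 and 144 in WT stroma, with 80.0, 192, 196 and 56.5 in IL-6 KO stroma, with IL-6 KO 1 and 4 below the WT range and the others inside it. Its log2 fold change was -0.51 (95% interval -1.55 to 0.53, adjusted p = 0.768 by limma).

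Slc25a37, the mitochondrial importer of developing red cells, had normalized counts of 9632, 11836, 7924 and 11216 in WT stroma, with 3491, 6187, 9315 and 3771 in IL-6 KO stroma. IL-6 KO 1, 2 and 4 were below all WT libraries and IL-6 KO 3 was among them. The mean was 10152 ± 1751 in WT and 5691 ± 2703 in IL-6 KO stroma (SD, n = 4 each), with a log2 fold change of -0.93 ± 0.35 (SE, 95% interval -1.70 to -0.17, adjusted p = 0.463 by limma). The erythroid marker sum was 49480.3, 58607, 45420.1 and 67991 in the WT libraries and 25928, 52040.0, 83230.3 and 19039 in the IL-6 KO libraries, highest in IL-6 KO 3 and lowest in IL-6 KO 4 and 1. Of 17 erythroid genes tested, globins included, 16 were lower in IL-6 KO stroma and none was called. The part of erythroid RNA in the value of Slc25a37 was not tested. Gm16867, identical to Slc25a37 over 382 nucleotides, had 615 to 2392 in stroma, and with the copy summed in the log2 fold change of Slc25a37 was -0.92.

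For ferritin in stroma, Fth1 had normalized counts of 3666, 3074, 2743 and 2944 in WT stroma, with 1889, 1097, 2316 and 1052 in IL-6 KO stroma. All 4 IL-6 KO libraries were below all 4 WT libraries, as for 3.25% of all genes tested, with a mean of 3107 ± 397 in WT and 1589 ± 619 in IL-6 KO stroma (SD, n = 4 each). The log2 fold change was -1.04 ± 0.32 (SE, 95% interval -1.74 to -0.35, adjusted p = 0.412 by limma), at an unadjusted p of 0.00649. Every IL-6 KO library was thus below every WT library for Fth1 in each compartment, as for 3.25% of genes in stroma and 12.0% in tumor. The share of genes with this pattern in both was not computed. Fth1 passed the adjusted threshold in tumor and not in stroma. In the order IL-6 KO 1 to 4, the erythroid sums were 25928, 52040.0, 83230.3 and 19039, beside Fth1 values of 1889, 1097, 2316 and 1052. The part of erythroid or neutrophil RNA in the stroma values of Fth1 and Ftl1 was not tested. Without IL-6 KO 4, the library rich in CT010467.1, the log2 fold change was -0.87 for Fth1, -0.73 for Ftl1 and -0.78 for Slc25a37, and none was called. Ftl1 had 2993, 3605, 2211 and 2895 in WT stroma, with 1160.4, 1763, 2538 and 1996 in IL-6 KO stroma, where 3 IL-6 KO libraries were below the WT range and IL-6 KO 3 was within it. Its log2 fold change was -0.68 ± 0.31 (SE, 95% interval -1.36 to -0.0086, adjusted p = 0.541 by limma), and 1 near-identical copy, Ftl1-ps1, had up to 229 in stroma.

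Slc40a1, whose product ferroportin is the target of hepcidin, did not differ beyond the spread between libraries. It had normalized counts of 219.9, 186, 958 and 154 in WT stroma, with 78.5, 183, 133 and 645 in IL-6 KO stroma. A single library in each genotype stood well above the rest, WT 3 and IL-6 KO 4, and the other libraries lay between 78.5 and 219.9. The log2 fold change was -0.57 ± 0.68 (SE, 95% interval -2.05 to 0.91, adjusted p = 0.83 by limma), and it became 0.023 without WT 3 and -1.16 without IL-6 KO 4. The summed macrophage markers, Slc40a1 and Hmox1 left out, were 116 in WT 3 and 235 in IL-6 KO 4, against 253 in IL-6 KO 2, where Slc40a1 was 183. Hmox1 was near 0, at 0, 13.3, 7.25 and 10.6 in WT stroma, with 0, 8.85, 0 and 10.3 in IL-6 KO stroma, and is given here without a fold change.

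The iron sensors varied widely between libraries. Aco1 had 41.3, 206, 17.9 and 60.8 in WT stroma, with 15.4, 338, 184 and 35.9 in IL-6 KO stroma, a span of 21.9-fold within IL-6 KO and 11.5-fold within WT. Its log2 fold change was 0.47 (95% interval -1.61 to 2.55, adjusted p = 0.908 by limma). Ireb2 had 416, 209, 259 and 153 in WT stroma, with 282, 55.0, 182 and 144 in IL-6 KO stroma, with the lowest value in IL-6 KO 2, the library with the highest Aco1. The log2 fold change was -0.76 (95% interval -1.88 to 0.36, adjusted p = 0.674 by limma).

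**Figure D2:**
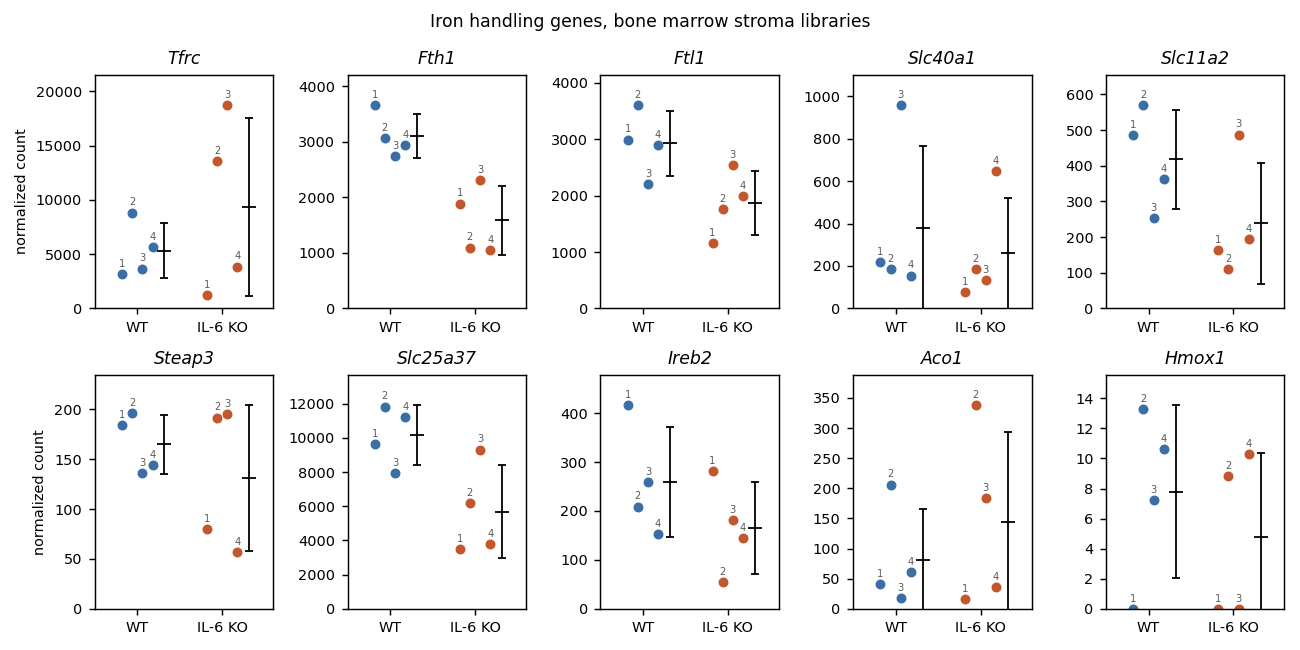
Normalized counts of the 10 iron genes in the stroma libraries, drawn as for tumor, with bars of the mean and SD cut at 0. Fth1 is the gene whose genotypes do not overlap, with IL-6 KO at 1052 to 2316 and WT at 2743 to 3666, and Slc40a1 has 1 high library in each genotype.

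**Figure D3:**
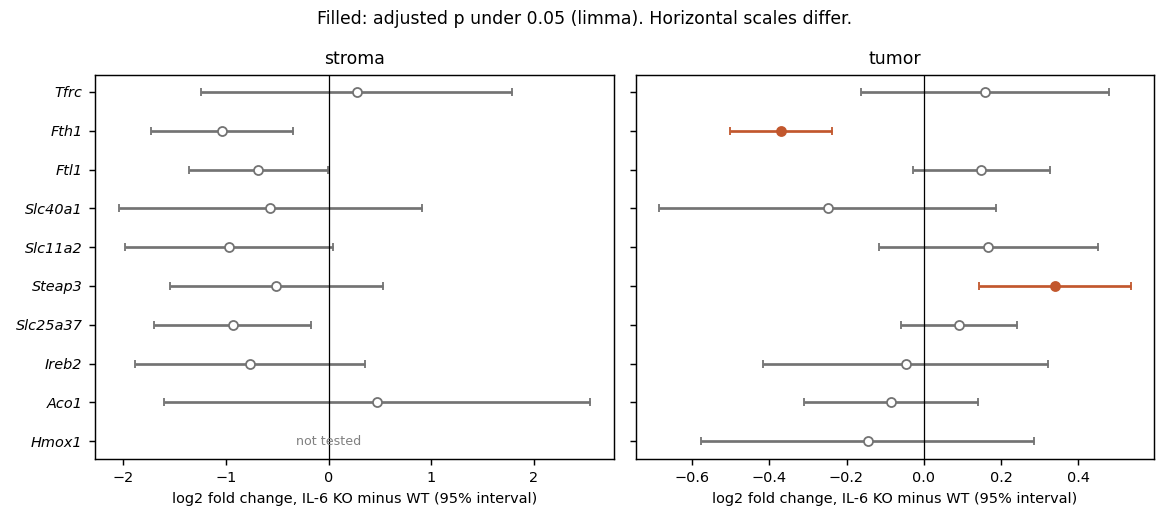
Log2 fold changes (IL-6 KO minus WT) of the 10 iron genes with 95% intervals from limma, stroma left and tumor right on different horizontal scales, filled where the adjusted p was under 0.05. Fth1 and Steap3 in tumor are filled, and intervals in stroma are several times wider than in tumor.

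Whether the genotype difference itself differed between compartments was tested in a fit over all 16 libraries, with weights that allow the compartments to differ in spread. Tumor and stroma libraries were taken as separate samples, so the intervals and p-values leave out any sharing of a mouse between them. Of 10887 genes tested, 1 was called (0.00919%), and none of the 9 iron genes in the fit passed (954 of all genes had an unadjusted p under 0.05). The difference was furthest from 0, in units of its error, for Slc25a37, at -1.03 (95% interval -1.67 to -0.38, adjusted p = 0.344 by limma), where a negative value means a lower log2 fold change in stroma than in tumor. For Ftl1 it was -0.83 (95% interval -1.53 to -0.13, adjusted p = 0.499 by limma), for Fth1 -0.67 (95% interval -1.28 to -0.066, adjusted p = 0.51 by limma) and for Slc11a2 -1.14 (95% interval -2.28 to -0.0036, adjusted p = 0.568 by limma). For Tfrc, with 0.11 (95% interval -1.51 to 1.74, adjusted p = 0.981 by limma), the interval allowed a difference of either sign.

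Ratios within a library compare genes without any scaling between libraries, and 4 ratios in 2 compartments gave 8 exact tests, in which the smallest possible p is 0.0286. In tumor the ratio of Fth1 to Ftl1 normalized counts was 0.743, 0.958, 0.892 and 0.828 in WT tumor, with 0.616, 0.691, 0.523 and 0.559 in IL-6 KO tumor. Every IL-6 KO ratio was below every WT ratio, and on the log2 scale the mean was -0.23 ± 0.16 in WT and -0.75 ± 0.18 in IL-6 KO (SD, n = 4 each), a difference of -0.52 (exact permutation test, two-sided, p = 0.0286, adjusted over the 8 tests p = 0.229). Both p-values are the smallest that 1 separated ratio among 8 tests can give, so the adjusted p was set by the design. With the Ftl1 copies summed in the difference was -0.55. The ratio of Tfrc to Fth1, uptake against storage, was 0.635, 0.764, 0.796 and 0.688 in WT tumor, with 1.04, 0.760, 1.11 and 1.31 in IL-6 KO tumor. It was above the WT range in 3 of 4 IL-6 KO libraries and within it in IL-6 KO 2, a difference of 0.53 (exact permutation test, two-sided, p = 0.0857, adjusted over the 8 tests p = 0.343). Ireb2 to Aco1 gave a difference of 0.038 (exact permutation test, two-sided, p = 0.857, adjusted over the 8 tests p = 0.857). Slc40a1 to Fth1 gave a difference of 0.12 (exact permutation test, two-sided, p = 0.514, adjusted over the 8 tests p = 0.724).

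In stroma, where single libraries differed by more, none of the ratios separated the genotypes. Fth1 to Ftl1 was 1.22, 0.853, 1.24 and 1.02 in WT stroma, with 1.63, 0.622, 0.913 and 0.527 in IL-6 KO stroma, a difference of -0.36 (exact permutation test, two-sided, p = 0.343, adjusted over the 8 tests p = 0.686). Tfrc to Fth1 was 0.863, 2.87, 1.34 and 1.92 in WT stroma, with 0.667, 12.4, 8.09 and 3.66 in IL-6 KO stroma, above the WT range in 3 IL-6 KO libraries and below it in IL-6 KO 1, a difference of 1.31 (exact permutation test, two-sided, p = 0.286, adjusted over the 8 tests p = 0.686). Ireb2 to Aco1 gave a difference of -1.24 (exact permutation test, two-sided, p = 0.543, adjusted over the 8 tests p = 0.724). Slc40a1 to Fth1 gave a difference of 0.47 (exact permutation test, two-sided, p = 0.686, adjusted over the 8 tests p = 0.784). The ratios are of normalized counts with no correction for transcript length, so their size within a library does not compare the molecules of the genes.

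**Figure D4:**
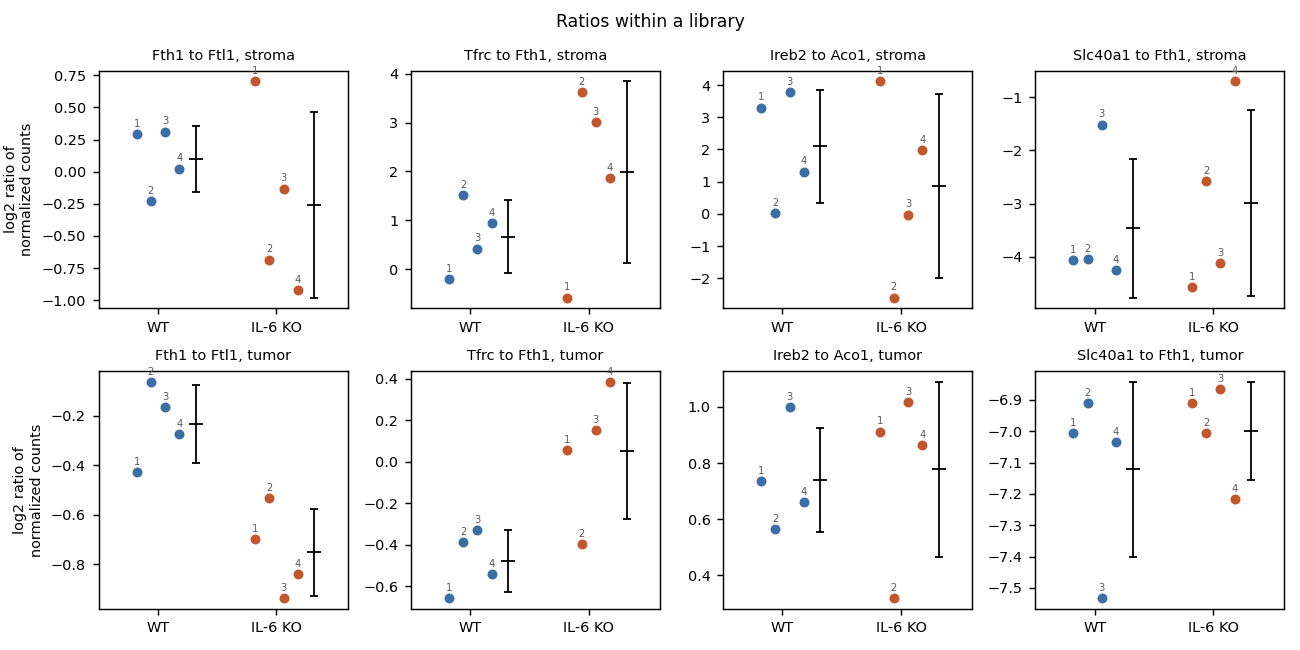
Log2 ratios of normalized counts of pairs of iron genes within each library, stroma above and tumor below, with the mean and SD of 4 libraries. In tumor all 4 IL-6 KO libraries have a lower Fth1 to Ftl1 ratio than all 4 WT libraries, and 3 of 4 have a higher Tfrc to Fth1 ratio.

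Beside the 10 genes, 6 lists of other iron genes were described, written from general knowledge. In tumor most of the calls fell in the mitochondrial list. Of 25 genes of mitochondrial iron and iron-sulfur cluster assembly tested, 8 were called higher and 2 lower in IL-6 KO, against the 10.6% and 9.16% of all genes, and the median log2 fold change was 0.20 against -0.0059. The number called higher was 4 without WT 2, WT 3, IL-6 KO 1 or IL-6 KO 4, 5 without WT 4 or IL-6 KO 3, and 10 with array weights, and it was 9 with the trend with GC content and length removed. Glrx5, a glutaredoxin that passes on assembled clusters, rose, at 1825 to 2265 in WT and 2859.8 to 3394 in IL-6 KO, with a log2 fold change of 0.56 ± 0.088 (SE, adjusted p = 0.00386 by limma). Iscu, the scaffold on which clusters are built, had 1568 to 1682 in WT and 2014 to 2186 in IL-6 KO, a log2 fold change of 0.38 ± 0.065 (SE, adjusted p = 0.00554 by limma). Nubp2, of the cytosolic assembly machinery, had 1129 to 1512 in WT and 1725 to 2169 in IL-6 KO, a log2 fold change of 0.60 ± 0.11 (SE, adjusted p = 0.0068 by limma). The genotypes did not overlap for these 3 genes. Cisd2 and Bola3 fell. Cisd2, a cluster protein of the outer mitochondrial and endoplasmic reticulum membranes, had 1499 to 1975 in WT and 1149.9 to 1273 in IL-6 KO, a log2 fold change of -0.45 ± 0.10 (SE, adjusted p = 0.0122 by limma). Bola3, a factor of late cluster assembly, had a log2 fold change of -0.53 ± 0.14 (SE, adjusted p = 0.0287 by limma).

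Of 10 other uptake genes tested in tumor, 1 was called, near the share of 10.6% of all genes called higher. Lcn2, a secreted protein that binds bacterial iron carriers and is made by neutrophils, was higher in IL-6 KO, with 186 to 293 in WT and 570.2 to 1373 in IL-6 KO and a log2 fold change of 2.01 ± 0.27 (SE, adjusted p = 0.00213 by limma). Of 13 heme and hemoglobin genes, 2 were called, both higher, against the same 10.6% of all genes. It was 1 without WT 1, WT 2, IL-6 KO 1, IL-6 KO 3 or IL-6 KO 4, and 1 to 2 genes were called lower under quantile normalization, array weights, the replicate block or without IL-6 KO 2. The first was Hp, the plasma scavenger haptoglobin that neutrophils also store, with 113 to 203 in WT and 263 to 918 in IL-6 KO, a log2 fold change of 2.06 ± 0.36 (SE, adjusted p = 0.00585 by limma). The other was Hmox2, the constitutive heme oxygenase, with 2309 to 2562 in WT and 2659 to 3536 in IL-6 KO, a log2 fold change of 0.37 ± 0.092 (SE, adjusted p = 0.0222 by limma). Lcn2 is itself among the 14 neutrophil markers, and the part of neutrophil RNA in Lcn2 and Hp was not tested. Of 5 genes of ferritin turnover and iron chaperones, Herc2, a ubiquitin ligase, was the 1 called higher, with a log2 fold change of 0.37 ± 0.10 (SE, adjusted p = 0.0257 by limma), against 10.6% of all genes. Its call was lost under quantile normalization and without WT 2, WT 3, IL-6 KO 1 or IL-6 KO 3. Ncoa4, the receptor that delivers ferritin to lysosomes, had a log2 fold change of 0.013 ± 0.084 (SE, adjusted p = 0.933 by limma).

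Hepcidin itself was not analysed here. Of 9 genes of the hepcidin axis tested in tumor, 2 were called, both lower, against 9.16% of all genes. None was called without WT 2 or without IL-6 KO 1, and 1 was called under quantile normalization, the replicate block, a mean over 50, the GC content and length setting, and without WT 1, WT 3, WT 4, IL-6 KO 3 or IL-6 KO 4. The first was the BMP receptor Bmpr1a, with 412 to 580.3 in WT and 267 to 391 in IL-6 KO, a log2 fold change of -0.57 ± 0.15 (SE, adjusted p = 0.0268 by limma). The other was Neo1, the hemojuvelin receptor neogenin, with 28.0 to 169 in WT and 8.36 to 18.7 in IL-6 KO, a log2 fold change of -1.90 ± 0.53 (SE, adjusted p = 0.0342 by limma). Among other mRNAs known to carry an iron responsive element, Alas2, the erythroid enzyme that starts heme synthesis, stood at 33.1 ± 30.4 in WT and 24.5 ± 13.7 in IL-6 KO tumor (SD, n = 4 each), against 4265 ± 847 and 2968 ± 1836 in stroma, on the separate scales of the 2 tables.

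In stroma no gene of the 6 lists was called by limma, of 65 tested, and 1 was higher and 4 were lower at an unadjusted p under 0.05. Of all 12202 genes tested, 1117 had such a p in either direction, and 5.20% were lower with it. The counts of the lists were thus near the background. The 2 genes of each list with the smallest p are given here. Of the heme list, Slc48a1, the heme transporter of endosomes and lysosomes, had 395 to 666 in WT and 54.8 to 300.1 in IL-6 KO, a log2 fold change of -1.86 ± 0.48 (SE, adjusted p = 0.324 by limma). Abcg2, a heme and drug exporter, had 448 to 760.2 in WT and 85.3 to 378 in IL-6 KO, a log2 fold change of -1.29 ± 0.46 (SE, adjusted p = 0.44 by limma). In both, every IL-6 KO library was below every WT library, as for 3.25% of all genes tested. The heme list as a whole had 11 of 13 genes lower and a median log2 fold change of -0.34, against -0.013 over all genes tested. From the mitochondrial list, the cluster assembly factors Isca1 and Iba57 had log2 fold changes of -0.86 ± 0.32 (SE, adjusted p = 0.462 by limma) and -1.10 ± 0.54 (SE, adjusted p = 0.562 by limma), and the list's median was -0.21.

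Tfr2, the second transferrin receptor, had a log2 fold change of -1.26 ± 0.71 (SE, adjusted p = 0.606 by limma) in stroma, and Snx3, a sorting nexin that recycles the transferrin receptor, of -0.64 ± 0.38 (SE, adjusted p = 0.617 by limma). In the hepcidin axis, Id1, a target of BMP signals, had a log2 fold change of 1.21 ± 0.50 (SE, adjusted p = 0.502 by limma) and Smad4, the common partner in BMP signalling, of 0.62 ± 0.58 (SE, adjusted p = 0.766 by limma), with a median of 0.46 over 9 genes. For the messages with an iron responsive element, Cdc42bpa and Alas2 had log2 fold changes of -1.02 ± 0.36 (SE, adjusted p = 0.44 by limma) and -0.73 ± 0.43 (SE, adjusted p = 0.614 by limma). Pcbp2, an iron chaperone, and Ncoa4 had 0.31 ± 0.39 (SE, adjusted p = 0.834 by limma) and -0.38 ± 0.48 (SE, adjusted p = 0.835 by limma) on the same scale.

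**Figure D5:**
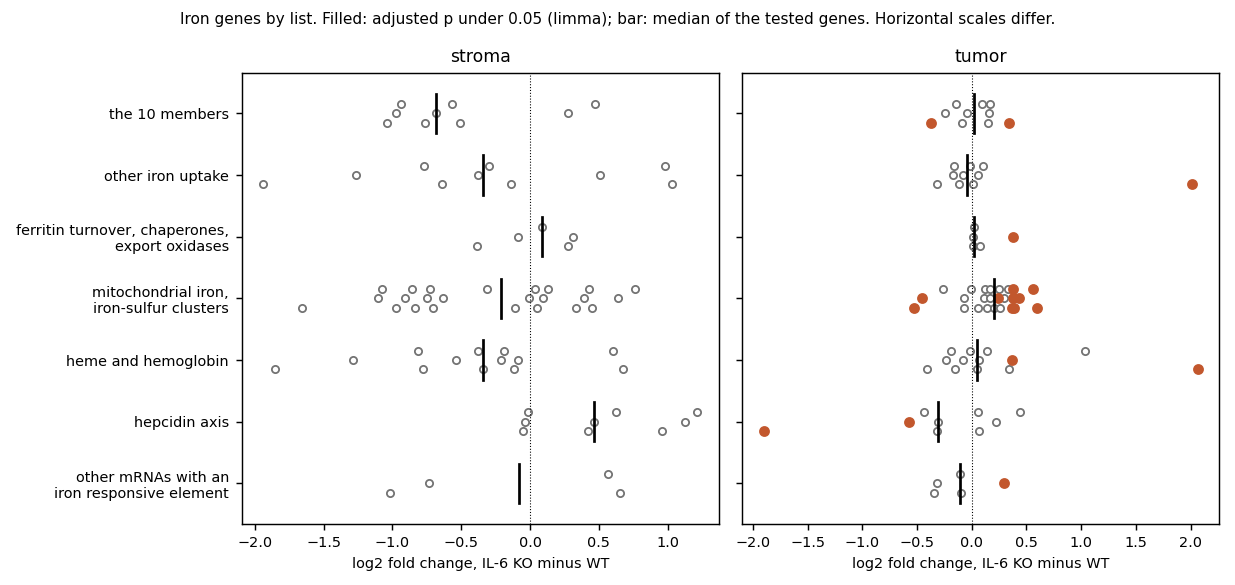
Log2 fold changes (IL-6 KO minus WT) of every tested gene of the 10 members and of 6 other iron lists, 1 point per gene, stroma left and tumor right on different horizontal scales, filled where the limma adjusted p was under 0.05 and with a bar at the median. Filled points appear in tumor, 8 higher and 2 lower in the mitochondrial list, and no point is filled in stroma.

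Genes whose pattern was most like 3 of the iron genes were found by Pearson correlation of log2(normalized count + 1) over the 8 libraries of a compartment, as a description, since libraries share their genotype and composition. Among 12201 genes in stroma, the 5 with the largest r to Tfrc were 2610008E11Rik (0.97), Mcm6 (0.97), Amd1 (0.96), Rbm48 (0.96) and H4c9 (0.96). Those closest to Slc40a1 were Cish (0.97), Phospho1 (0.97), Esyt1 (0.95), Sbno1 (0.95) and Cuedc2 (0.93). Mcm6 is a subunit of the replicative helicase and Cish an inhibitor of cytokine receptor signals. Among 14492 genes in tumor, those closest to Tfrc were Dph7 (0.95), Slc2a3 (0.95), Lmf2 (0.95), Amigo3 (0.94) and Sema6d (0.92). Those closest to Slc40a1 were Yes1 (0.98), Bcas1 (0.97), Gm45804 (0.94), Fas (0.93) and 4732416N19Rik (0.93), and those closest to Hmox1 were Tpi-rs11 (0.94), Gm43079 (0.93), Gm10171 (0.92), Kif14 (0.92) and Celf1 (0.92). Of these, Slc2a3 encodes a glucose transporter and Fas a death receptor. The lists for Tfrc and for Slc40a1 shared no gene between compartments, which says little, since each list is 5 of 12201 or 14492 genes. Over 8 libraries, the largest r among so many genes can be high without any relation. Of the genes listed, 2610008E11Rik and Rbm48 in stroma and Tpi-rs11, Gm43079 and Gm10171 in tumor had a lowest value of 0.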

How the data were processed

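The authors sequenced RNA of sorted B-ALL cells carrying mCherry (tumor) and of bone marrow cells without it (stroma), after depletion of ribosomal RNA and with strand kept, in 4 libraries per group and 16 in all. Per the methods and the submitters' processing notes, reads were aligned to mm10, quantified with Salmon 1.3.0 and normalized with DESeq2 1.28.1. The authors deposited 1 table of normalized counts per compartment. These deposited values are estimated counts that the authors divided by size factors, a signal and not whole reads, so no count test was run here. The deposited files of the authors' own genotype tests (mean, fold change, p-value) were not used. The values do not give the read depth of a library, and no counting interval was computed. All per-sample columns of both tables were mapped to samples by their names.

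Genotypes were compared by limma 3.58.1 (R 4.3.3) on the scale log2(normalized count + 1). The prior variance was a trend on mean expression, genes entered if their mean exceeded 10, tests were two-sided, and p-values were adjusted by Benjamini-Hochberg over all genes tested with a threshold of 0.05. Stroma and tumor had separate fits, and their difference was tested over all 16 libraries with weights per compartment. Ratios within a library were tested by exact permutation. A near-identical copy was a transcript from a different gene that BLAST 2.17.0 aligned over 150 nucleotides or more at an identity of 97% or more. Gene identifiers were matched to GENCODE vM21 without the version suffix, for 13338 of 13344 genes in stroma and 15069 of 15080 in tumor, and lengths were those of protein-coding transcripts. Tables and figures were made with Python 3.11.15 (pandas 2.3.3, SciPy 1.17.1, matplotlib 3.10.9).

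The 10 genes and the other lists, written from general knowledge, were chosen with earlier results of these data known. Beside the 10 genes, the text names of each other iron list up to 3 genes per direction with the smallest p among those called, the 2 with the smallest p in stroma, the copies of the 10 genes, and the 5 genes most like Tfrc, Slc40a1 and Hmox1. Ncoa4 and Alas2 in tumor, and the marker genes named, were chosen after their values were seen. 1 gene that this rule names is not reported here. The scripts were tested on simulated data. Alternatives were pseudocounts of 0.5 and 5, no filter, a mean over 50, centring on the median, quantile normalization, weights per array, a block for the replicate number, copies summed, the longest transcript and each library left out. A loess fit (span 0.3) that takes out trends with GC content and length was added after the data were seen.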

Additional observations from a re-analysis of the deposited data

Results flagged for a closer look

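In groups of 4 libraries, 6 of 56 sets of values had a library that stood apart by Dixon's ratio at the 95% level, where chance gives about 1 in 20. Slc40a1 in WT stroma 3 had a normalized count of 958, against 154 to 219.9 in the other WT stroma libraries, and its log2 ratio to Fth1 was -1.52 there, against -4.25 to -4.04. WT tumor 1 had a low Fth1 of 10712, against 11463 to 11561 in the other WT tumor libraries, and was still above every IL-6 KO tumor library. IL-6 KO tumor 2 had a low Ireb2 of 2159, against 3678 to 3890.4, and a low Steap3 of 3697, against 4561 to 4726. IL-6 KO tumor 4 had a low Slc40a1 of 58.3, against 69.4 to 71.3.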

How the results depend on the processing

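In tumor the genes with an adjusted p under 0.05 numbered 1572 to 3328 with 1 library left out, and 1 to 3 in stroma, where array weights gave 4. Of the 10 iron genes in tumor, 1 was called under quantile normalization and 1 to 2 with 1 library left out, and Fth1 was called in all of these. With the GC content and length trend removed the number was again 2, Fth1 and Tfrc in place of Steap3. No iron gene was called in stroma or in the test of the difference between compartments under any setting tried.

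Turned signs were all below the threshold. In tumor, Ftl1 turned to -0.11 and Ireb2 to 0.23 with the GC content and length trend removed, Ireb2 to 0.10 with array weights, and Hmox1 to 0.028 under quantile normalization. With 1 library left out, log2 fold changes ran from -0.28 to 1.02 for Tfrc, from -1.16 to 0.023 for Slc40a1 and from -0.23 to 1.23 for Aco1 in stroma, and from -0.13 to 0.15 for Ireb2 in tumor. The log2 ratio differences ran from -0.29 to 1.12 for Slc40a1 to Fth1 in stroma, and in tumor from -0.042 to 0.19 for Ireb2 to Aco1 and from -0.016 to 0.19 for Slc40a1 to Fth1. The causes were not tested. With 3 libraries against 4, no ratio test could reach 0.05.

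Same-numbered WT and IL-6 KO libraries did not deviate together (correlations from -0.029 to 0.13), so the numbers were not taken as pairs. With the replicate number as a block, 2230 genes were called in tumor and 1 in stroma, of the iron genes 2 in tumor and 0 in stroma.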
